A study of Mus musculus with 2 samples.

Results

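The subject is a set of 10 secreted signals that fibroblasts are known to make: the chemokines Ccl2, Ccl7, Cxcl1, Cxcl5, Cxcl12 and Cxcl14 and the cytokines Il6, Lif, Il11 and Csf1. They were found as the probe sets whose only gene symbol in the platform annotation was one of these 10 names, which gave 19 of the 45037 probe sets on the array other than controls, and 10 of the 18193 genes. The study compared wild-type mouse embryonic fibroblasts, the cells that grow out when an embryo is dissociated and plated, with fibroblasts homozygous for Phc2 L307R, a missense change in the SAM domain of the Polycomb subunit Phc2. Both cultures were of the C57BL/6 strain, embryonic day 12.5 and passage 1, grown in serum-containing medium on gelatin, with no further treatment named in the labels. There was 1 array per genotype, so no difference below has a replicate, a standard error or a p-value, and fewer cells of a type cannot be told apart from less RNA per cell.

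Chemokines are small secreted proteins that guide leukocytes through G protein-coupled receptors, and fibroblasts are among their main sources in connective tissue. Ccl2, Ccl7, Cxcl1, Cxcl5 and Il6 are inducible and rise in stimulated fibroblasts, largely through the transcription factor NF-kB, while Cxcl12 and Cxcl14 are made by unstimulated stroma. Il6, Lif and Il11 signal through the shared receptor chain gp130 to Jak kinases and Stat3, and Csf1 sustains macrophages through its receptor Csf1r. Polycomb repressive complex 1, to which Phc2 belongs, silences developmental genes, many of which have CpG-rich promoters.

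Upstream sequences are shown because the CpG content of a promoter bears on Polycomb in general and because NF-kB is known to drive the inducible members. RefSeq promoter windows of the build GRCm38.p6 were at hand for 7 of the 10 genes, as 8 windows, and the 250 bases before the start were read. The following pair belongs to the genes of the highest and the lowest log2 ratio among those with a window, Cxcl14 (chr13:56296552-56296801, minus strand) and Il6 (chr5:30012864-30013113, plus strand). They are written 5′ to 3′ on the strand of the gene with each CpG in capitals.
Cxcl14: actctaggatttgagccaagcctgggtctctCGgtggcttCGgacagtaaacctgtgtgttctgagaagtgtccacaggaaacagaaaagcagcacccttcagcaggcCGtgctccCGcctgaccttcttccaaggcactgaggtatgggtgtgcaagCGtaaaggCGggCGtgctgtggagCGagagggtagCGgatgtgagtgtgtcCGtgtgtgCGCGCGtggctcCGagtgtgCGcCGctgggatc
Il6: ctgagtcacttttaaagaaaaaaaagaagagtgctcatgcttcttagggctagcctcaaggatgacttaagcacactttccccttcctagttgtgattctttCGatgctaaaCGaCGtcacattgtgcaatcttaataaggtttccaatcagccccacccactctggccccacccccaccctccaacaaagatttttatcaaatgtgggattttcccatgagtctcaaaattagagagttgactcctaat

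The Cxcl14 stretch held 16 CpG dinucleotides and the Il6 stretch 3. Over 32851 RefSeq windows the median was 6, with a lower quartile of 2 and an upper quartile of 16. Cxcl12 held 14, Cxcl1 and Csf1 10 each, Lif 6, and the 2 windows of Il11 held 1 and 12. Whether CpG content goes with the log2 ratio was not tested. The letters GGANTTTCC, searched on both strands as a core of the NF-kB site, occurred in 3 of the 8 windows and in 1.07% of all windows. These letters were chosen after the sequences were seen, and a match is a description of the letters alone. The matches are printed in capitals with 15 bases on each side, and the match in Csf1 is on the strand opposite to the gene.
Cxcl1 (chr5:90891160-90891198, plus strand): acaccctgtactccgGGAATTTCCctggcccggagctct
Il6 (chr5:30013056-30013094, plus strand): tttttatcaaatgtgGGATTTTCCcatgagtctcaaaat
Csf1 (chr3:107760600-107760638, minus strand): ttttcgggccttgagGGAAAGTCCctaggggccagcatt

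The AP-1 letters TGANTCA, also searched on both strands, were found in a window of Il6, Lif and Il11 and in 6.75% of all windows. The C/EBP letters TTGNGCAA were found in Il6 alone among the members and in 2.61% of all windows. The genes whose windows held the NF-kB letters had log2 ratios of both signs in the comparison below, 0.13 for Cxcl1, -0.13 for Il6 and 0.10 for Csf1.

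Signals are MAS5 values on a linear scale, and each difference is a log2 ratio, Phc2 L307R over wild type. A signal under the floor of 94.8, the higher of the medians of both arrays, was raised to it, and a ratio resting on it is a bound. Each gene takes its values from its brightest probe set on average, and counts as measured when either array puts that probe set above the floor. All 10 members were measured. Of their 19 probe sets, 16 lay above the floor on both arrays, 2 on only 1 array, and 1, of Lif, on neither. Signals of different probe sets are not set against each other, since each has its own binding strength.

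None of the 10 genes differed 2-fold between the genotypes, in either direction, where 1.11% of 11408 measured genes did (0.579% higher and 0.535% lower in Phc2 L307R). A count of 0 among 10 is what a share that small would mostly give, so it says nothing particular about the members. Nor did any of their 18 measured probe sets, where 1.55% of 23615 measured probe sets did (0.555% higher and 0.991% lower). The median log2 ratio of the members was 0.12, beside 0.06 over all measured genes. The ratio was above 0 in 7 members and below 0 in 3, and it was above 0 in 59.1% of all measured genes.

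**Figure D1:**
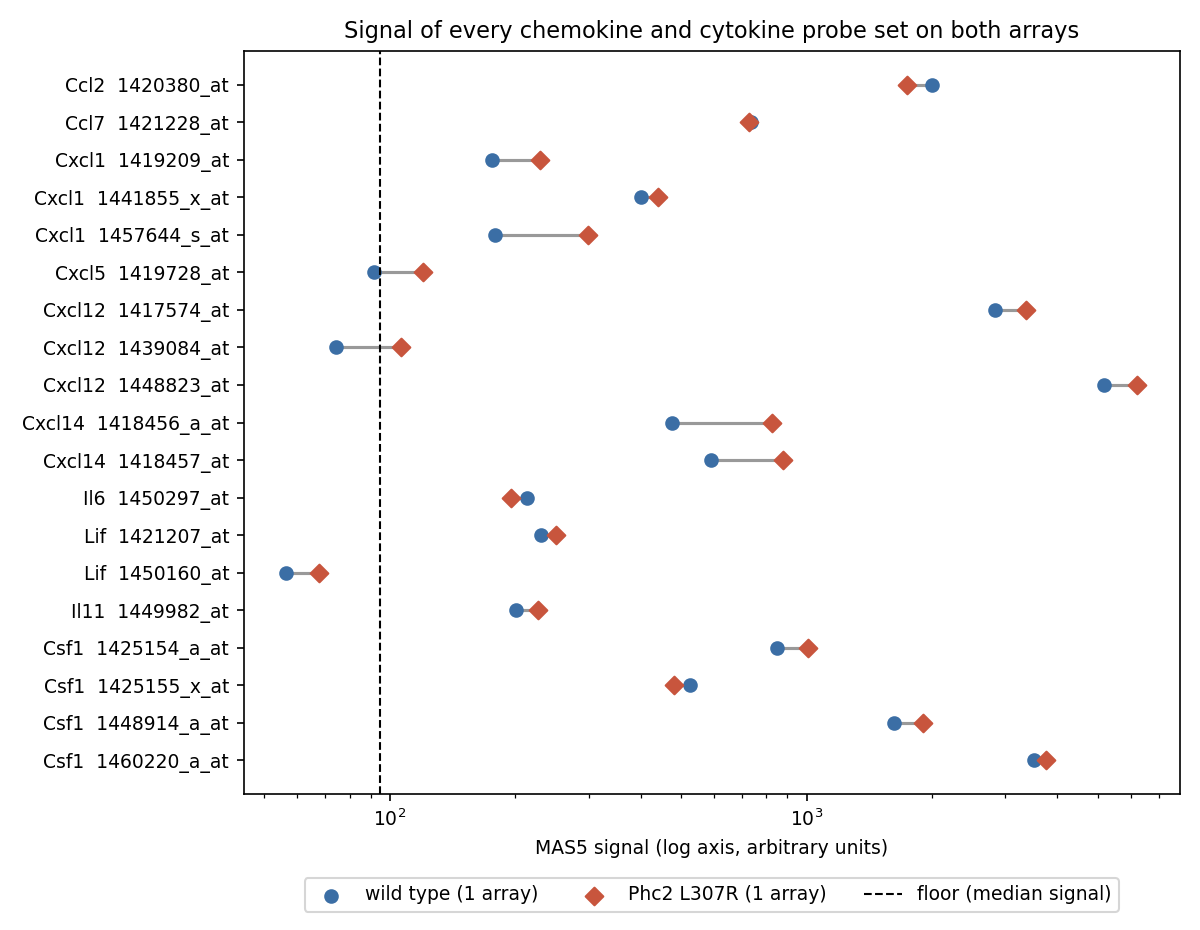
MAS5 signal (log axis, arbitrary units) of all 19 probe sets of the 10 genes on the wild-type array (blue circles) and the Phc2 L307R array (red diamonds), with the floor of 94.8 as a dashed line. The longest lines between the arrays are those of 1 Cxcl1 probe set (179.1 and 299.5) and of the upper Cxcl14 probe set (474.5 and 824.1), and both Cxcl14 pairs point to Phc2 L307R.

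The monocyte chemokines Ccl2 and Ccl7, which attract monocytes through Ccr2, were close to equal on both arrays. For Ccl2 the value was 1997 on the wild-type array and 1739 on the Phc2 L307R array, a log2 ratio of -0.20 and the lowest of the 10 members. Ccl7 had 735.9 and 729.4, a log2 ratio of -0.01. Each gene rests on 1 probe set, and the wild-type array was the higher in both. Of 11408 measured genes, 49.9% had a larger absolute log2 ratio than Ccl2 and 96.2% a larger one than Ccl7.

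These 2 genes lie next to each other in the RefSeq gene order, followed by the chemokine genes Ccl11, Ccl12 and Ccl8. Those 3 neighbours lay below the floor on both arrays, at signals of 5.3 and 4.4 for Ccl11, 4.3 and 9.1 for Ccl12, and 72.3 and 64.6 for Ccl8, in wild type and Phc2 L307R. They were chosen for their position after their values were seen. On both arrays, then, signal above the floor in this stretch was seen for Ccl2 and Ccl7 and not for the 3 genes that follow them.

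The neutrophil chemokines Cxcl1 and Cxcl5, ligands of Cxcr2, had higher signals on the Phc2 L307R array at each of their 4 probe sets. Cxcl1 gave 400.8 in wild type and 439.3 in Phc2 L307R with the probe set that represents it, 1441855_x_at, a log2 ratio of 0.13. Its second, 1419209_at, gave 176 and 229.6, a log2 ratio of 0.38. The last, 1457644_s_at, gave 179.1 and 299.5, a log2 ratio of 0.74. The 3 probe sets of Cxcl1 shared a direction and differed in size, with a mean log2 ratio of 0.42 and an SD of 0.31 between them. That SD is close to the 0.32 found between probe sets of 1 gene over the 5460 genes with at least 2 measured ones. The probe sets with the lowest and the highest of these ratios carry the suffixes _x_at and _s_at, a sign of probes shared with other transcripts.

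Cxcl5 had signals of 91.7 and 120.4 at its only probe set. The wild-type value lay just under the floor, so its log2 ratio of 0.34 is a lower bound. Without the floor it was 0.39, and had the floor been the 60th percentile of signals the gene would not have been measured.

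Cxcl1 and Cxcl5 lie in 1 cluster of chemokine genes. Between them, in RefSeq gene order, are Ppbp, Pf4, Cxcl3 and Cxcl15, and Cxcl2 follows Cxcl1. Of these 5, chosen for their position after their values were seen, Pf4 was above the floor on 1 array, at 52.6 in wild type and 97.4 in Phc2 L307R, a log2 ratio of at least 0.04. The other 4 were below it on both arrays, with signals from 13.9 to 54.7.

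The stromal chemokines Cxcl12 and Cxcl14 had higher signals on the Phc2 L307R array at all 5 of their probe sets. Cxcl12, the ligand of Cxcr4 and of the scavenging receptor Ackr3, had 5161 in wild type and 6216 in Phc2 L307R, a log2 ratio of 0.27. Its second probe set gave 2831 and 3363, a log2 ratio of 0.25. The last gave 74.2 and 106.1, below the floor in wild type, a log2 ratio of at least 0.16. The SD between the 3 was 0.06, the smallest among the 4 members with several measured probe sets, though the last is held down by the floor: without it, its log2 ratio was 0.52.

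Cxcl14, whose receptor is not settled, showed the largest difference of the 10. Wild type gave 590.6 and Phc2 L307R 876.4 for 1418457_at, a log2 ratio of 0.57, and they gave 474.5 and 824.1 for 1418456_a_at, a log2 ratio of 0.80. These are 1.48-fold and 1.74-fold. The mean of both probe sets was 0.68 with an SD of 0.16. Of all measured genes, 4.51% had a higher log2 ratio than that of 1418457_at, and 8.02% had a larger absolute one.

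To set each ratio beside the scatter of the arrays at its own signal, the middle 95% of log2 ratios was taken over the 1000 measured probe sets nearest in mean signal. For the Cxcl14 probe set 1418456_a_at this ran from -0.62 to 0.62, and the value of 0.80 lay outside it. The other Cxcl14 probe set, at 0.57, lay inside a range of -0.63 to 0.61. The remaining 16 measured probe sets of the members also lay inside their ranges, 1457644_s_at of Cxcl1 by the narrowest margin, at 0.742 under an upper end of 0.743. Such a range leaves 5% of probe sets outside by construction, and it measures scatter between genes on 2 arrays and not between cultures.

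**Figure D2:**
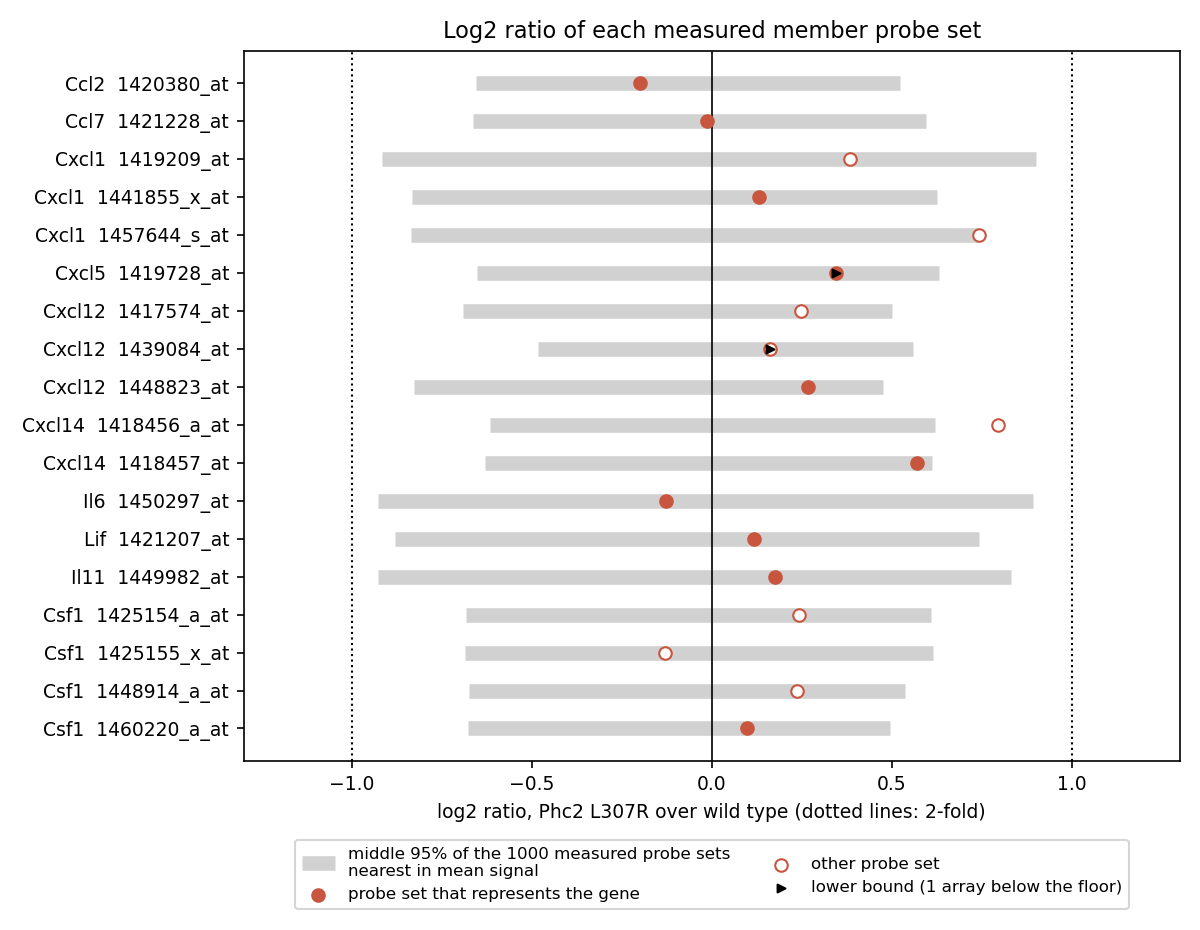
Log2 ratio, Phc2 L307R over wild type, of the 18 measured probe sets (filled: the probe set that represents its gene; open: others; black triangle: a lower bound), with grey bars for the middle 95% of the 1000 measured probe sets nearest in mean signal and dotted lines at 2-fold. Only 1418456_a_at of Cxcl14, at 0.80, lies outside its grey bar, and no point reaches a dotted line.

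Among the gp130 cytokines, the log2 ratios were small and of both signs. Il6, the prototype of the family, gave 213.3 in wild type and 195.3 in Phc2 L307R, a log2 ratio of -0.13. Lif, which keeps mouse embryonic stem cells undifferentiated, had 230.3 and 249.8, a log2 ratio of 0.12. Its other probe set, 56.4 and 67.5, was below the floor on both arrays. Il11, a cytokine of stromal cells, had 200.7 and 226.6, a log2 ratio of 0.18. At such signals the middle 95% of probe sets ran from -0.93 to 0.89 for Il6 and from -0.93 to 0.83 for Il11, wider than for the brighter members. Differences of the size seen in these 3 genes were therefore not distinguishable from the scatter at their signal.

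Csf1, the macrophage growth factor, had 4 probe sets, all above the floor on both arrays. The signals at 1460220_a_at were 3506 in wild type and 3750 in Phc2 L307R, a log2 ratio of 0.10. At 1448914_a_at they were 1618 and 1907, and at 1425154_a_at 851 and 1006, log2 ratios of 0.24 and 0.24. At 1425155_x_at they were 526.4 and 481.1, a log2 ratio of -0.13. Csf1 was thus the only 1 of the 4 members with several measured probe sets in which they differed in direction, and the SD between them was 0.17.

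Ordered by log2 ratio, the members ran from Ccl2 (-0.20), Il6 (-0.13) and Ccl7 (-0.01) through Csf1 (0.10), Lif (0.12), Cxcl1 (0.13) and Il11 (0.18) to Cxcl12 (0.27), Cxcl5 (at least 0.34) and Cxcl14 (0.57). Neighbours in this order differ by less than the 0.32 between probe sets of 1 gene. The SD of log2 ratios over all genes above the floor on both arrays was also 0.32. Cxcl1 would stand next to Cxcl14 with the mean over its probe sets. Of the 10, 7 had an absolute log2 ratio under 0.2, and at a threshold of 1.5-fold the count of members, each by its brightest probe set, was still 0, where 7.44% of measured genes passed it, 4.19% higher and 3.25% lower. Cxcl14 passes 1.5-fold by the mean over its probe sets, at a log2 ratio of 0.68.

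**Figure D3:**
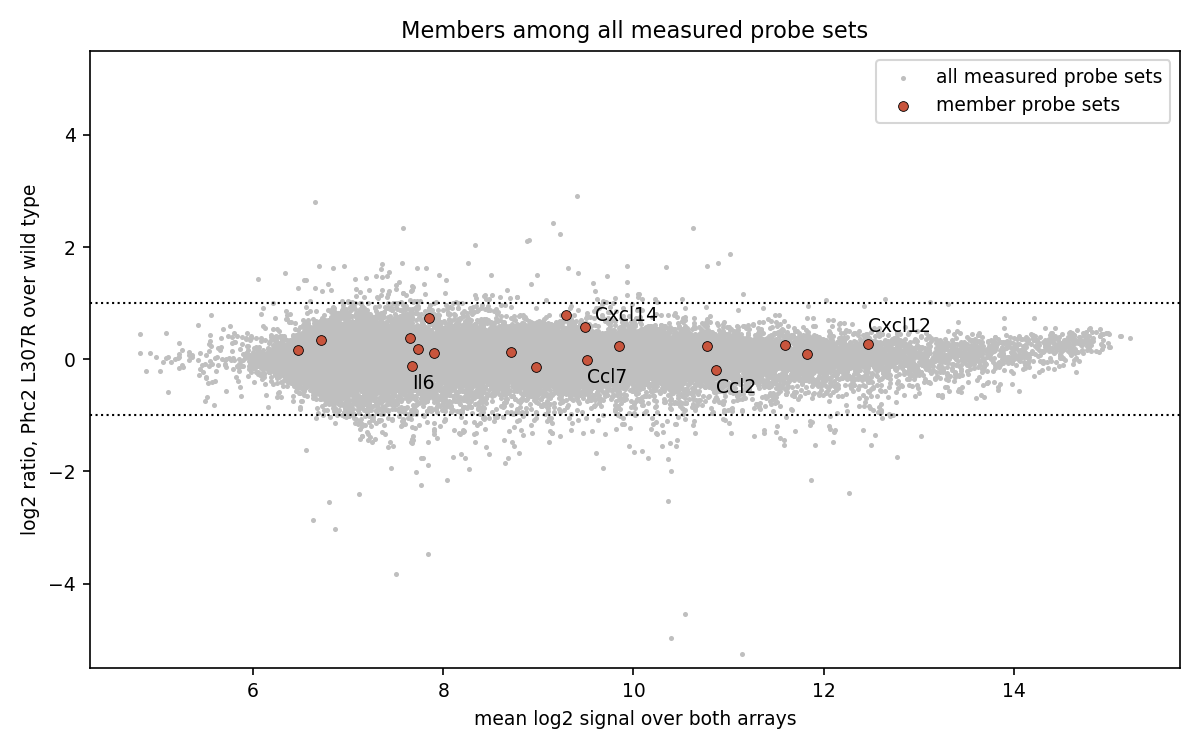
Log2 ratio, Phc2 L307R over wild type, against mean log2 signal for 23615 measured probe sets (grey) and the 18 measured probe sets of the members (red), with dotted lines at 2-fold. The members spread over most of the range of signals and stay within the main body of points, with the 2 Cxcl14 probe sets near its upper edge.

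Chemokine receptors of leukocytes lay below the floor, while most receptors of the cytokines were measured. Of 13 receptor genes with a probe set, 7 were measured, 3 above 0 and 4 below, none 2-fold, with a median log2 ratio of -0.002. Ccr2, Cxcr2 and Cxcr4, the receptors of Ccl2, Cxcl1 and Cxcl12, lay below the floor on both arrays, at 50.8 and 28.9, 22.8 and 8.7, and 44 and 39.8. Ackr3, the other receptor of Cxcl12, had 2010 in wild type and 1649 in Phc2 L307R, a log2 ratio of -0.29. These 4 and Lifr were named after their values were seen, as receptors of members.

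Il6st, which encodes gp130, had the largest value of the list, with signals of 3548 and 5327 and a log2 ratio of 0.59. Its 3 other measured probe sets gave -0.01 to 0.33, so its probe sets differed widely. Il6ra, the specific receptor of Il6, had 134.8 and 101.8, a log2 ratio of -0.41. Lifr had 648.9 and 648.1, a log2 ratio of -0.002. Osmr, a partner chain for oncostatin M, had 2459 and 3113, a log2 ratio of 0.34, and 0.64 at another probe set. Csf1r, the receptor of Csf1, had 162.6 and 242.1, a log2 ratio of 0.57, and 0.25 to 0.61 at its 2 other probe sets.

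Downstream of gp130, 18 of the 19 listed Jak, Stat and Socs genes and their partners had a probe set and all 18 were measured. Of these, 15 had a log2 ratio above 0 and 3 below, none 2-fold, with a median of 0.22 and a range of -0.06 to 0.31. As background for this list and those below, 59.1% of all measured genes were above 0, with a median of 0.06. The median of the gp130 list was 0.13 to 0.22 over the alternative settings. The kinase Tyk2 was at 0.31, the inhibitor Socs1 at 0.31, Stat3, the main transcription factor of the pathway, at 0.28 and the kinase Pim1 at 0.27. The other probe sets of Stat3 ran from -0.23 to 0.65, and that of Pim1 gave -0.47.

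For NF-kB and its regulators, 20 of 22 genes with a probe set were measured, 14 above 0 and 6 below, none 2-fold, with a median log2 ratio of 0.21, which was 0.10 to 0.26 over the alternative settings. The kinase Irak1 was at -0.88, the ubiquitin ligase Birc3 at 0.63, the subunit Nfkb2 at -0.63 and the kinase Map3k14 at 0.57. The other probe set of Nfkb2 gave 0.68 and those of Irak1 gave -0.30 to 0.26, so neither gene has a settled direction. Receptors of the stimuli that induce the members, such as Tnf and interferon, had a median of -0.05 over 14 measured genes, 7 above 0 and 7 below. Tnfrsf1b, a Tnf receptor, stood highest at 0.87 (139.3 and 255.3), with 0.56 at its other probe set. Tnfrsf1a was at 0.43, Ifngr1 at -0.50 and Cd14 at -0.41.

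Other genes that stimulated fibroblasts induce together with these chemokines spanned log2 ratios from -1.48 to 0.94. Of 21 with a probe set, 16 were measured, 8 above 0 and 8 below, with a median log2 ratio of 0.01. Tnfaip6, a hyaluronan-binding protein, was 2.80-fold lower in Phc2 L307R, at 706.3 in wild type and 252.6, and was the only 1 of them past 2-fold. The collagenase Mmp13 was at 0.94 (302.7 and 581.1), and the adhesion molecule Icam1 at 0.55. Vcam1, another adhesion molecule, was at -0.44, with 0.09 and 0.21 at its other probe sets.

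Among 10 measured factors that control the decay of cytokine mRNAs, 5 log2 ratios were above 0 and 5 below, around a median of 0.001. Khsrp, a decay-promoting RNA-binding protein, was at -0.96 (1536 and 791.4), and -0.45 and 0.002 came from its 2 further probe sets. Arid5a, which stabilises Il6 mRNA, was at 0.44. Zfp36l1 was at -0.33 and 0.19 at its 2 probe sets, and Hnrnpd at -0.20 and -0.16. Proteases and proteoglycans that process or bind the secreted proteins had a median of 0.24 over 9 measured genes, 6 above 0. The proteoglycan Sdc4 was at 0.92 and at -0.22 at its other probe set, perlecan (Hspg2) at 0.67 and 0.58, and the protease Ctsk at 0.46. Adam10, another protease, was at -0.33, and at 0.002 and 0.74 at its other measured probe sets, so its direction is not settled.

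Of 29 other chemokine genes with a probe set, 9 were measured, 5 above 0 and 4 below, none 2-fold, with a median log2 ratio of 0.04. Cxcl16 (124.9 and 174) was at 0.48, Ccl5 (109.7 and 147.2) at 0.42, the interferon-induced Cxcl10 (168.1 and 127) at -0.40 and Cxcl17 at 0.16. Of 21 other cytokines, 9 were measured, 5 above 0, with a median of 0.08. Tslp, an epithelial and stromal cytokine, was at -0.71 (390.2 and 239.2), the osteoclast factor Tnfsf11 at -0.67 (151.4 and 95.3), Il7 at 0.64 and Il18 at 0.63. The remaining 20 of the other chemokines and 12 of the other cytokines lay below the floor on both arrays. All 10 members were measured, as were 11408 of the 18193 genes on the array, and the members were chosen with earlier results of these data known.

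**Figure D4:**
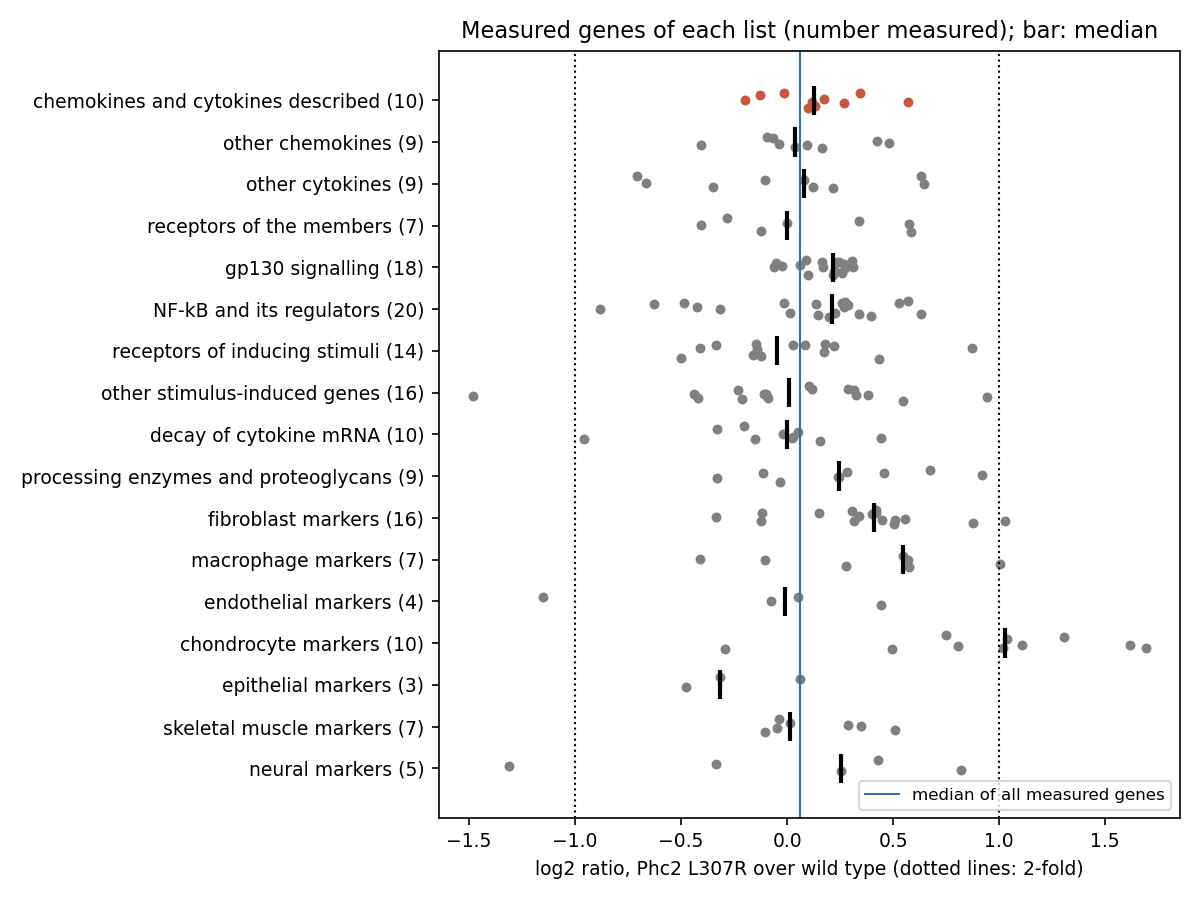
Log2 ratio, Phc2 L307R over wild type, of each measured gene in the members, the pathway lists and the cell type marker lists (number of measured genes in brackets), with the median of each list as a black bar, the median of all measured genes (0.06) as a blue line and dotted lines at 2-fold. The 10 members lie between -0.20 and 0.57, while the chondrocyte markers reach 1.69.

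The cultures also differed in markers of cell types, which is given here because stromal chemokines are made by cells of several kinds. Fibroblast markers were all measured, 16 of 16, and 13 had a log2 ratio above 0, with a median of 0.41, or 0.21 to 0.41 over the alternative settings. Summed over the list, the signal was 185956 on the wild-type array and 240213 on the other. Bright control transcripts were also higher on that array: the 3' probe sets of Actb gave 27201 and 36308 and those of Gapdh 19671 and 24291. The median of the fibroblast markers was 0.21 with quantile normalization and 0.33 with loess. What part bright signals in general have in the marker values was not tested. Lum was at 1.03, Dcn at 0.88, Col3a1 at 0.56 and Col5a1 at 0.51. The 3 fibroblast markers below 0 were Pdgfrb at -0.34 (5254 and 4158), Pdgfra at -0.12 and S100a4 at -0.12. Of 11 chondrocyte markers 10 were measured, at a median of 1.03, with 9 above 0 and 6 at least 2-fold higher, and a summed signal of 6133 and 9564. Cnmd was at 1.69 or more, Matn1 at 1.62 or more, Col11a2 at 1.31 and Snorc at 1.11. Col2a1 was at 0.49 (4037 and 5685), and Sox9 was below 0, at -0.29 (295.9 and 241.5). Cxcl14 and Cxcl12 were higher on the same array as most of these markers. So were 7 of the 10 members in all, and 59.1% of all measured genes. The part of the markers in the chemokine values was not tested.

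Macrophage markers, which bear on Csf1 and Csf1r, were measured for 7 of 16 genes, 5 above 0, with a median log2 ratio of 0.55 (0.17 to 0.55 over the alternative settings) and summed signals of 944.5 (wild type) and 1262 (Phc2 L307R). Laptm5 was at 1.00, with at most -0.06 at its other measured probe set, Csf1r at 0.57, Lyz2 at 0.57 and Adgre1 at 0.55 (114.5 and 167.3). The 2 measured macrophage markers below 0 were Cd14 at -0.41 (140.7 and 105.9) and Cd68 at -0.11 (102.1 and 94.9). The defining markers Ptprc and C1qa were below the floor on both arrays, at 8.1 and 26.7 and at 10.9 and 10.4. Endothelial markers were measured for 4 of 10 genes, with Emcn at -1.15, Tek at 0.44 or more, Kdr at 0.05 and Egfl7 at -0.07, where its other measured probe sets gave 0.33 and 0.67. The Emcn signals were 210.8 in wild type and 94.9 in Phc2 L307R, the latter just above the floor of 94.8. Epithelial markers were measured for 3 of 8 genes, Krt18 at -0.48, Krt5 at -0.31 and Krt8 at 0.06, with -0.34 and 0.02 at its other probe sets. Skeletal muscle markers had a median of 0.01 over 7 genes, with Acta1 at 0.51, Des at 0.35, Myod1 at 0.29 and Chrna1 at -0.11. Neural markers had a median of 0.26 over 5 genes. It turned to -0.44 with the 60th percentile as floor, to -0.06 when probe sets were averaged and to -0.06 without a floor. By gene, the values were Map2 at -1.31, Dcx at 0.82 or more, Tubb3 at 0.43 and Sox2 at -0.33 or lower.

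Over the whole series, the Spearman correlation between the arrays was 0.955 across 45037 probe sets, which are not independent replicates. For RNA quality, the 3' over 5' signal of Gapdh was 0.791 on the wild-type array and 0.721 on the other, and that of Actb 1.15 and 1.14. Phc2 itself had 3184 and 4079 at 1 probe set and 3145 and 3103 at the other, log2 ratios of 0.36 and -0.02, which check nothing about the labels, since the change is a missense one. None of the 10 members lies on the chromosome of Phc2 in the RefSeq gene table.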

How the data were processed

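The deposited values are MAS5 intensities on a linear scale, given for 45101 probe sets and 2 arrays. Per the submitters' processing notes, the tools were Affymetrix Expression Console and MAS5, without versions. Not given in the sources used here: a build, and how the arrays were scaled. From the values alone, the arrays share a mean of 500.0 on each array after 2% of probe sets were trimmed at each end. The number of arrays limits the precision, and no detection calls were used.

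The 64 control probe sets were left out. Of the rest, 34945 had 1 symbol, 932 several and 9160 none, and 34741 of the probe sets with 1 symbol were matched by gene ID to RefSeq GRCm38.p6. Signals were taken to log2 with the floor described above (Python 3.11.15, pandas 2.3.3, statsmodels 0.14.6 for loess). With 1 array per genotype no test was run. Calls are differences of at least 2-fold. The calculations were tested on simulated arrays. The 10 members with every probe set and up to 4 measured genes of largest absolute log2 ratio per list were named, with the markers Ptprc, Adgre1, C1qa and Csf1r. Fibroblast, macrophage and chondrocyte markers below 0, and Col2a1, were added after their values were seen. Members and lists were chosen with earlier results of these data known.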

Additional observations from a re-analysis of the deposited data

How the results depend on the processing

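No paired analysis was possible because each genotype has 1 array. The log2 ratio of each member was recomputed under 9 alternatives: quantile normalization, loess on the mean signal (span 0.4), centring, the 40th or the 60th percentile as floor, none at all, the floor value as a pseudocount, the mean over measured probe sets, and removal of _x_at and _s_at probe sets. All 89 values (Cxcl5 was not measured at the 60th percentile) kept their sign, moved by less than 0.32 and stayed under 2-fold. Cxcl14 ran from 0.50 to 0.68, Cxcl1 from 0.07 to 0.42 and Ccl2 from -0.26 to -0.19. The members' median ran from 0.06 to 0.15, against 0.00 to 0.07 for all measured genes. The counts over all genes, 66 higher and 61 lower, were 127 higher and 90 lower with the lower floor, 27 and 35 with the higher one, 1325 and 1396 with no floor and every gene counted, 26 and 22 with the pseudocount, 478 and 371 at 1.5-fold, and 8 and 6 at 3-fold. Centring gave 47 and 75, so that 38.5% of calls were higher ones in place of 52.0%. The list medians with the widest ranges were neural markers (-0.44 to 0.26), receptors of the members (-0.14 to 0.34), endothelial markers (-0.15 to 0.25) and macrophage markers (0.17 to 0.55). Of the 16 lists, 9, with medians between -0.05 and 0.26, took both signs. Near the floor, where Cxcl5 and a Cxcl12 probe set lie, a ratio is a bound only.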
